A study of Mus musculus with 24 samples.

Results

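Interferon-stimulated genes are the genes that interferons switch on in a cell, and 44 of them were chosen by name for their known roles in the interferon response. Of the 44 genes, 42 had probes on the arrays (64 probes), and 37 of these (52 probes) were kept because at least 1 probe was detected on at least 1 array. The 37 genes were read among 10418 kept genes of all kinds. Ifit1, Oas1a, Iigp1, Rtp4 and Xaf1 had probes that were not detected on any of the 24 arrays, and Herc6 and Dtx3l had no matched probe and were not analysed here. A gene enters by being detected somewhere, so the counts below describe the 37 kept genes and not all 44.

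The arrays measured RNA of CD4+ T cells from wild type (WT) mice and from mice without BAF180, the protein of the gene Pbrm1 and a subunit of the PBAF chromatin remodelling complex. BAF180-deficient mice carried floxed alleles of Pbrm1 and a CD4-Cre transgene, which deletes during T cell development in the thymus. T cells that descend from those precursors therefore lack the gene, CD8+ T cells included, while cells outside the T lineage keep it. Naïve cells were purified from mice of 4 to 6 weeks as CD4+CD62L+ cells at a purity of 95%, and the labels give Balb/c as strain. The paper's methods instead describe a mixed genetic background, without Balb/c, before the cross to CD4-Cre mice. Which of these holds for the mice of the arrays is not settled here. Each of 4 cell states had 3 arrays per genotype, lettered A, B and C, which the study ascribes to 3 pairs of mice. Resting Naïve cells were taken as isolated, and stimulated Naïve cells after 24 h with antibodies to CD3 (1 µg/ml) and CD28 (2 µg/ml). Resting Th2 cells had been cultured with the same antibodies, IL-4 at 10 ng/ml, anti-IFN-gamma at 10 µg/ml and, from 24 h, IL-2 at 100 U/ml. Stimulated Th2 cells were in addition exposed for 1.5 h to PMA (50 ng/ml) together with ionomycin (500 ng/ml). The Th2 cultures of both genotypes thus held an antibody that blocks interferon-gamma, a condition that no Naïve group shared.

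Type I interferons (the interferon-alpha family and interferon-beta) act through the kinases Jak1 and Tyk2 and a factor that contains Irf9 and binds the interferon-stimulated response element, a pair of GAAA cores. Interferon-gamma, a product of activated T and NK cells, acts through the kinases Jak1 and Jak2 on the gamma-activated site, TTCNNNGAA, and induces in particular the guanylate-binding proteins and the immunity-related GTPases. The genes switched on block viral RNA and protein synthesis, sense foreign nucleic acids, conjugate the ubiquitin-like protein ISG15 and feed back on the pathway itself.

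The promoter letters of the genes are shown first, as background. RefSeq starts in build GRCm38.p6 gave a window of 250 bases before to 50 after the start for 34 of the 44 genes. GAAA, any 2 bases and GAAA, on either strand, were found in 15 of the 34 (44.1%), against 3.99% of the 27025 genes of the promoter table. TTCNNNGAA, which reads the same on both strands, was found in 9 (26.5%), against 9.55% of all genes. 4 genes held both and 14 held neither. Among the GTPases, 4 of the 5 with a promoter held the GAAA pair, and of the genes for effectors that act on nucleic acids 6 of 14. A match describes these letters and says nothing on binding in these cells, and no match says only that the letters are not in the window. The 8 windows below were picked, after the values were seen, from genes that hold the pair and are described in the results, and run in the direction of transcription with the pair in capitals. Ifit3 lies at chr19:34583397-34583426 (plus strand), Rsad2 at chr12:26456553-26456582 (minus), Eif2ak2 at chr17:78882535-78882564 (minus), Isg15 at chr4:156200871-156200900 (minus), Ddx58 at chr4:40239804-40239833 (minus), Gbp2 at chr3:142620594-142620623 (plus), Igtp at chr11:58199512-58199541 (plus) and Irgm1 at chr11:48871425-48871454 (minus).
Ifit3: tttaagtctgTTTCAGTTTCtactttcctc
Rsad2: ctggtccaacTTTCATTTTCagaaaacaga
Eif2ak2: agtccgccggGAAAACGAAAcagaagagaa
Isg15: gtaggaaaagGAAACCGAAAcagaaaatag
Ddx58: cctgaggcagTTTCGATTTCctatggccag
Gbp2: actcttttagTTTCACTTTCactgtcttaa
Igtp: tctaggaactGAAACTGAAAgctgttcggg
Irgm1: tcaagaaataGAAACCGAAActgattctca
The first 5 genes had lower means in BAF180-deficient than in WT Th2 cells, of which Eif2ak2 alone met the criteria given below, and the last 3 encode GTPases that rose when Naïve cells were stimulated. These GTPases also had lower means in BAF180-deficient stimulated Th2 cells, at -0.77 (Gbp2), -0.12 (Igtp) and -0.42 (Irgm1). Ifit3, Rsad2 and Ddx58 fell when Naïve cells were stimulated, so genes with the pair moved in both directions. Cmpk2, which passed the criteria in resting Th2 cells, held no pair in its window.

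Values are log2 of background-corrected, quantile normalized intensities, 1 probe per gene (the kept probe with the highest mean), and a difference of 1 is a doubling. Levels of different probes are not comparable, so each gene is compared only with itself. Pbrm1, the deleted gene, was lower on every BAF180-deficient array than on every WT array of the same state, with differences between -1.01 and -1.86. Between 8047 and 10689 probes were detected per array, and replicate arrays of a group correlated between 0.949 and 0.989. All 8 markers of naïve T cells were detected on at least 1 array of each genotype in resting Naïve cells. The same held for all 8 Th2 markers in stimulated Th2 cells, and for 6 of the 8 in stimulated Naïve cells. Dapl1 was detected on 1 of 3 BAF180-deficient resting Naïve arrays. In stimulated Th2 cells Maf was detected on 1 of 3 arrays of each genotype, and Il1rl1 on 1 WT and 2 BAF180-deficient arrays. Il1rl1 was not detected in resting Th2 cells of either genotype, nor Maf in those of WT. The labels give the replicates only as letters and do not say which arrays share a mouse, so p-values measure the spread between these arrays.

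The 37 genes differed in how often they were detected. 14 of them, among them Eif2ak2, Irf9, Isg15, Gbp2 and Ifi47, were detected on all 24 arrays, and 6 (Oasl1, Ifih1, Trim25, Mx1, Mx2 and Ifi44) on at most 3. Several followed the cell state in detection alone. Parp9, an ADP-ribosyltransferase family member, was detected on 5 of 6 resting Naïve arrays and on 0 of the 18 others. Isg20, an RNA exonuclease, was detected on 11 of 12 Th2 arrays and on 0 of 12 Naïve arrays. Cmpk2, a mitochondrial nucleotide kinase, was detected on 8 of 12 resting arrays and on 0 of 12 stimulated arrays.

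**Figure D1:**
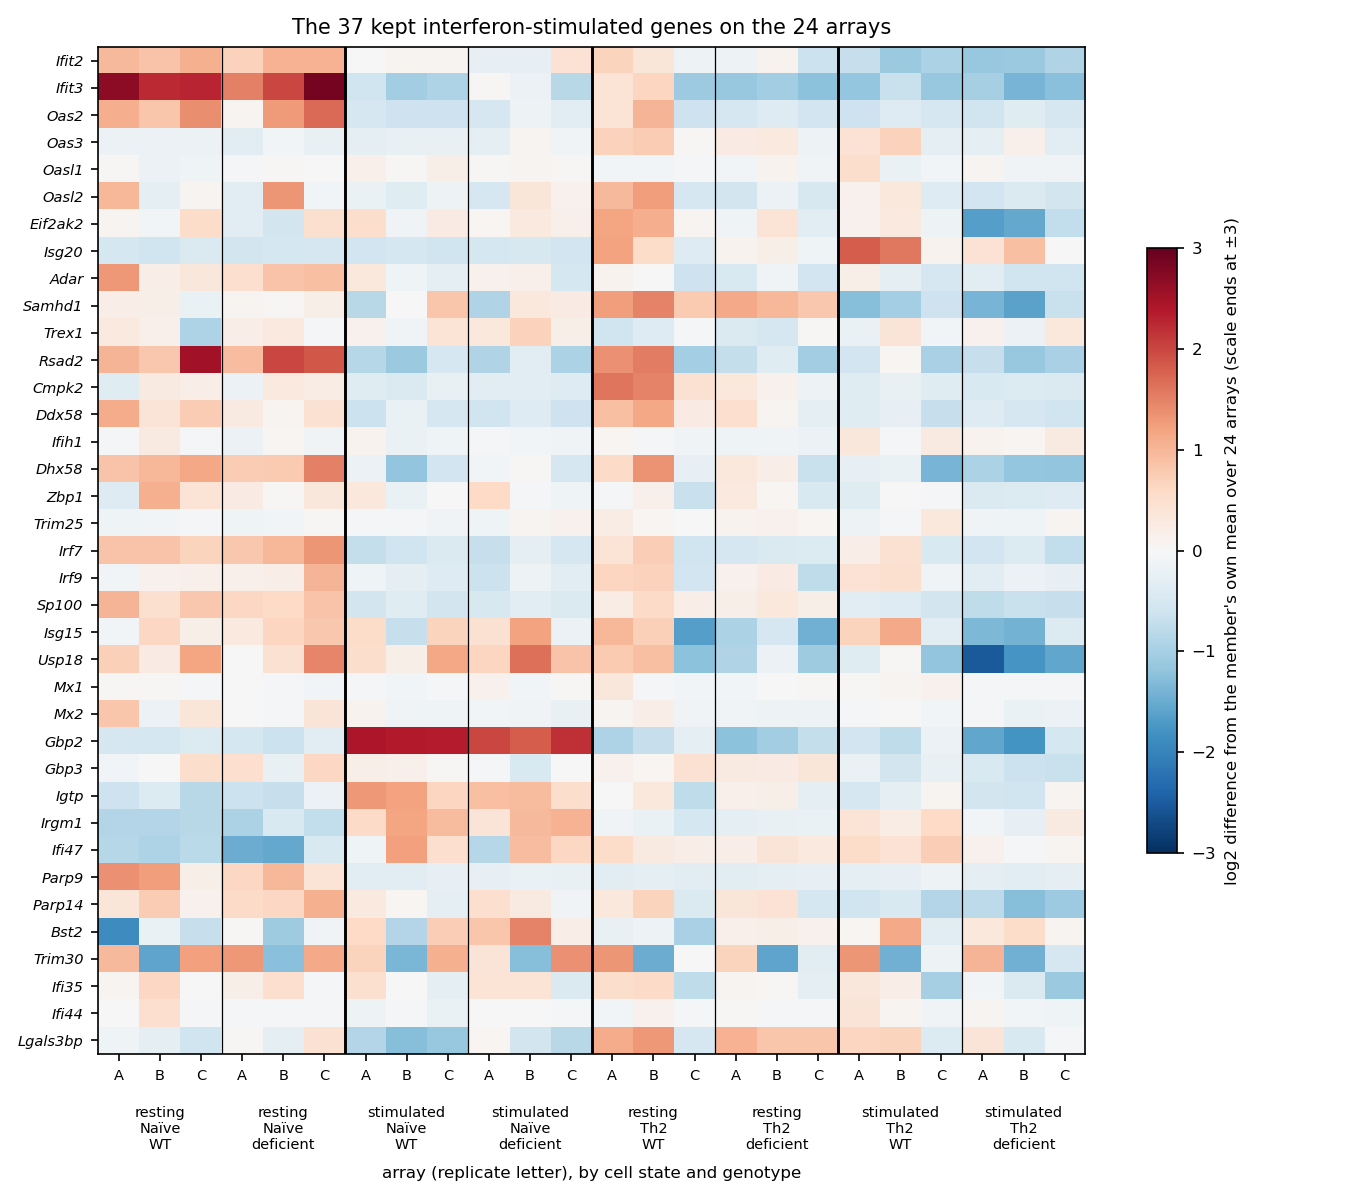
Each row is 1 of the 37 kept interferon-stimulated genes and each column 1 of the 24 arrays, by cell state, genotype and replicate letter. Colour gives the log2 difference from the gene's own mean over the 24 arrays. Ifit3 is highest in resting Naïve cells and Gbp2 in stimulated Naïve cells of both genotypes, and in resting Th2 cells WT arrays A and B stand above WT array C for many genes.

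As a mean over the 37 genes, the WT resting Th2 arrays A, B and C gave 6.61, 6.61 and 5.84, and the BAF180-deficient arrays 6.10, 6.12 and 5.88. In stimulated Th2 cells the WT arrays gave 6.16, 6.16 and 5.84 and the BAF180-deficient arrays 5.71, 5.59 and 5.72. The genotypes overlapped in resting Th2 cells, through WT array C, and did not overlap in stimulated Th2 cells. Of the resting Naïve cells the WT arrays gave 6.44, 6.36 and 6.43 and the BAF180-deficient arrays 6.29, 6.37 and 6.66. In stimulated Naïve cells they gave 6.20, 6.00 and 6.20 in WT and 6.16, 6.33 and 6.16 in BAF180-deficient cells, and the genotypes overlapped in both Naïve states. The group means were 6.36 ± 0.45 and 6.03 ± 0.14 (SD, n = 3; WT, then BAF180-deficient) in resting Th2, and 6.05 ± 0.18 and 5.67 ± 0.08 in stimulated Th2 cells. For Naïve cells they were 6.41 ± 0.04 and 6.44 ± 0.19 at rest, and 6.13 ± 0.11 and 6.21 ± 0.10 after stimulation. The mean of all 10418 genes moved by at most 0.026 among the arrays of a group. The role groups followed different states. The mean of the 13 effectors was 5.73 to 6.21 on the 6 resting Naïve arrays and 5.21 to 5.58 on the 6 stimulated Naïve arrays. The mean of the 7 GTPases was 7.32 to 7.73 and 8.19 to 8.69 on the same arrays, so that stimulated arrays lay below resting arrays for the effectors and above them for the GTPases, without overlap. On resting Th2 WT arrays A and B the effectors gave 6.27 and 6.31, and on the other 4 resting Th2 arrays 5.21 to 5.54.

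**Figure D2:**
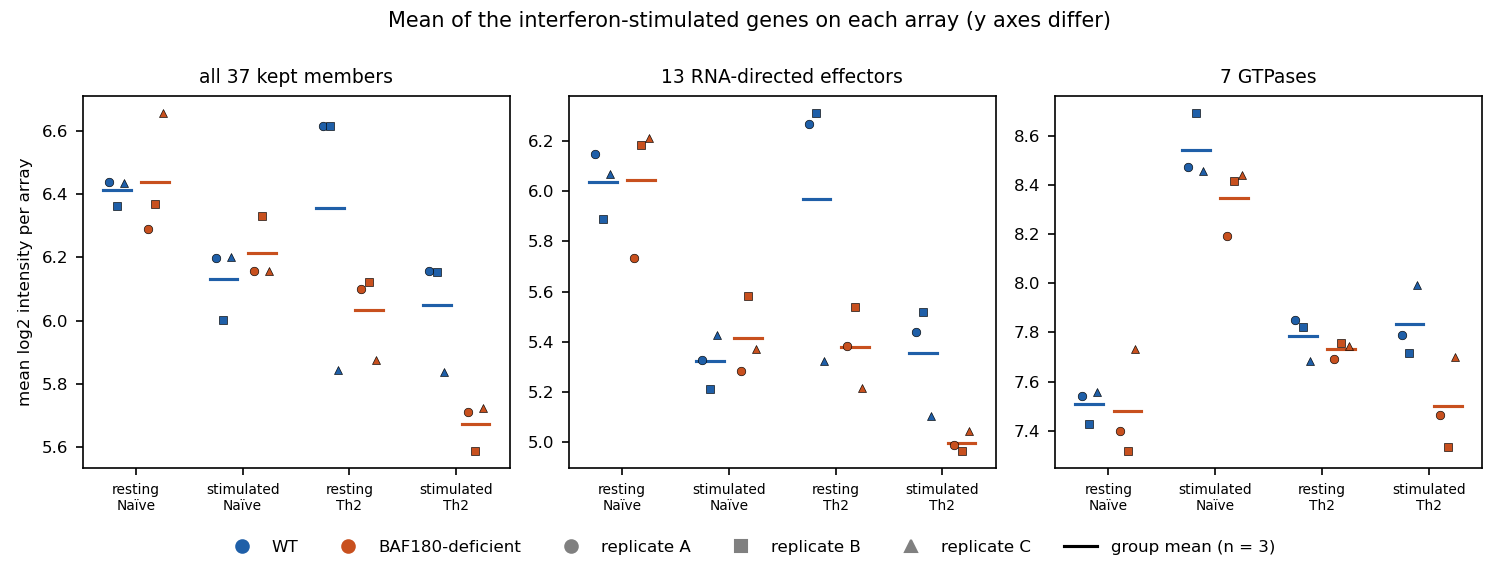
Mean log2 intensity on each array (y axis) of the 37 interferon-stimulated genes (left), of the 13 effectors that act on nucleic acids (middle) and of the 7 GTPases (right), by cell state (x axis) and genotype, with a line at each group mean (n = 3) and a marker shape for each replicate letter. Over the 37 genes, the WT arrays of stimulated Th2 cells lie between 5.84 and 6.16, above all BAF180-deficient arrays, while WT array C of resting Th2 cells, at 5.84, lies below all BAF180-deficient arrays.

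WT array C stood apart from WT arrays A and B for these genes. In resting Th2 cells it was the lowest WT array for 30 of the 37 genes, against 35.3% of all genes, and lay more than 1 below the mean of A and B for 14 of them, against 1.41% of all genes. In stimulated Th2 cells it was lowest for 20 of the 37 (36.3% of all genes), and more than 1 below for 6 (0.989% of all genes). Rsad2 (viperin, which disturbs viral RNA synthesis and membranes) shows the split at 6.75, 6.90 and 4.34 on resting Th2 WT arrays A, B and C. The array was kept, and results are given with and without it. The C arrays of both genotypes also had higher B cell markers. The mean of 6 such genes was 5.57 on the WT and 5.86 on the BAF180-deficient C array of resting Th2 cells and 4.34 to 4.78 on the other 4, with Cd22 and Ms4a1 not detected. It was 5.06 and 5.49 on the C arrays of stimulated Th2 cells and 4.30 to 4.46 on the others. The mean of the 8 Th2 markers was 6.08 on the resting WT C array and at least 6.54 on the other 5 resting Th2 arrays. The part of these values in the results below was not tested. In a mixed sample, fewer cells of a type and less RNA per cell cannot be told apart.

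In resting Th2 cells, 28 of the 37 genes were lower in BAF180-deficient than in WT cells, with a median difference of -0.20, against 49.4% of all genes and a median of 0.0026. Only Cmpk2 met the criteria of the study's methods, which 0.106% of all genes met. These are a Z-ratio beyond 1.5 (here a log2 difference of 0.28 to 0.36, by state), a p below 0.05 and an FDR below 0.3. The methods also ask for a positive mean signal, which every kept probe had here. Here p and FDR came from limma, not from the procedures of the study. With its own procedures the paper reported many more genes changed without BAF180, and more in differentiated than in Naïve cells. With limma the share of all genes was largest in resting Naïve cells (0.758%). Without the FDR criterion 9 genes passed, all lower (Ifit2, Ifit3, Oas2, Oasl2, Eif2ak2, Rsad2, Cmpk2, Ddx58 and Irf7), against 3.26% of all genes. Of the 13 effectors that act on nucleic acids 11 were lower, with a median of -0.52, and of the 7 GTPases 4, with a median of -0.05, while Isg15 and Usp18 had a median of -0.92. Markers of cell types moved in the same comparison. All 8 naïve T cell markers were lower in BAF180-deficient cells (median -0.37), with a mean of 7.87 to 8.05 against 8.19 to 8.44 in WT. All 4 kept NK and CD8 markers were lower (median -0.28), with a mean of 4.78 to 5.32 against 5.19 to 5.67 and with Klrb1c and Klrk1 not detected. All 8 Th2 markers (median 0.14) and all 6 B cell markers (median 0.20) were higher. None of these marker genes met the criteria, and their part in the values of the 37 genes was not tested.

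Cmpk2 gave 6.22, 6.12 and 5.08 on WT arrays A, B and C and 4.95, 4.75 and 4.48 on BAF180-deficient arrays. All 3 BAF180-deficient values lay below all WT values, the nearest pair being WT C and BAF180-deficient A. The difference was -1.08 ± 0.22 (SE), or 2.12-fold, with an adjusted p of 0.194 in limma. Ifit3, whose protein binds viral RNA together with other IFIT proteins, gave 6.18, 6.42 and 4.69 in WT and 4.64, 4.73 and 4.55 in BAF180-deficient cells. WT arrays A and B stood apart from the other 4, among which WT C was level with the BAF180-deficient arrays, and the difference of -1.13 ± 0.35 had an adjusted p of 0.802. Rsad2 gave 4.65, 5.01 and 4.33 in BAF180-deficient cells, beside the WT values above, and differed by -1.33 ± 0.51. Only its WT arrays A and B exceeded every BAF180-deficient array.

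Ddx58 encodes RIG-I, the sensor of viral RNA ends. It gave 6.19, 6.47 and 5.54 in WT and 5.81, 5.38 and 5.04 in BAF180-deficient cells at rest, and differed by -0.66 ± 0.23. The groups overlapped only between WT C and BAF180-deficient A. Irf7, the transcription factor that amplifies type I interferon genes, gave 5.40, 5.73 and 4.38 in WT and 4.48, 4.54 and 4.56 in BAF180-deficient cells, a difference of -0.65 ± 0.25. Its probe was detected on 2 WT arrays and 1 BAF180-deficient array, so the lower values lie near background. Oas2, which makes the oligoadenylates that activate RNase L, gave 5.28, 5.90 and 4.26 in WT and 4.36, 4.49 and 4.31 in BAF180-deficient cells. It was detected on 2 WT arrays and not on any BAF180-deficient array there, and WT C lay below all BAF180-deficient values. The group means give a bound of at least 1.48-fold higher in WT, which rests on WT arrays A and B. Such a bound divides the mean of the brighter group by the mean, over the arrays of the undetected group, of the higher of its own value and the lowest value of any detected probe. The largest shift that did not pass at an unadjusted p below 0.05 was in the ISG15 pair. Isg15, the ubiquitin-like modifier, gave 7.26, 6.99 and 4.61 in WT and 5.32, 5.77 and 4.83 in BAF180-deficient cells. Usp18, the protease that removes ISG15 and dampens the type I receptor, gave 7.52, 7.63 and 5.49 in WT and 5.83, 6.55 and 5.65 in BAF180-deficient cells. For both, WT C lay below every BAF180-deficient array.

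Groups did not overlap for Cmpk2 and Mx2 among the genes lower in BAF180-deficient resting Th2 cells, against 4.47% of all genes, but Mx2 was not detected on any of these 6 arrays. In the other direction they did not overlap for Bst2 alone, against 5.81% of all genes. Bst2, or tetherin, which holds budding virions at the cell surface, gave 6.03, 6.11 and 5.29 in WT and 6.41, 6.44 and 6.40 in BAF180-deficient cells. The difference was 0.61 ± 0.46 and did not meet the criteria.

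Leaving out WT array C raised the count of genes that met the criteria in resting Th2 cells from 1 to 6 (Ifit3, Oas2, Rsad2, Cmpk2, Ddx58 and Irf7, all lower), against 0.307% of all genes. Cmpk2 then differed by -1.45 with an adjusted p of 0.00131, Ifit3 by -1.66 (0.0505), Rsad2 by -2.16 (0.0649) and Irf7 by -1.04 (0.0763). Leaving out WT array A, WT array B, BAF180-deficient array B or BAF180-deficient array C gave 0 genes, and the median difference of the 37 genes ranged from -0.08 without WT array A to -0.39 without WT array C. Deviations of same-lettered arrays of the genotypes from their group means correlated here at 0.05 (A), 0.18 (B) and 0.62 (C). They thus went together clearly for letter C only, and reading the letters as pairs is an assumption. With the letter as a replicate block within the state, Cmpk2 (adjusted p = 0.0129) and Ddx58 (0.189) met the criteria, against 1.13% of all genes.

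**Figure D3:**
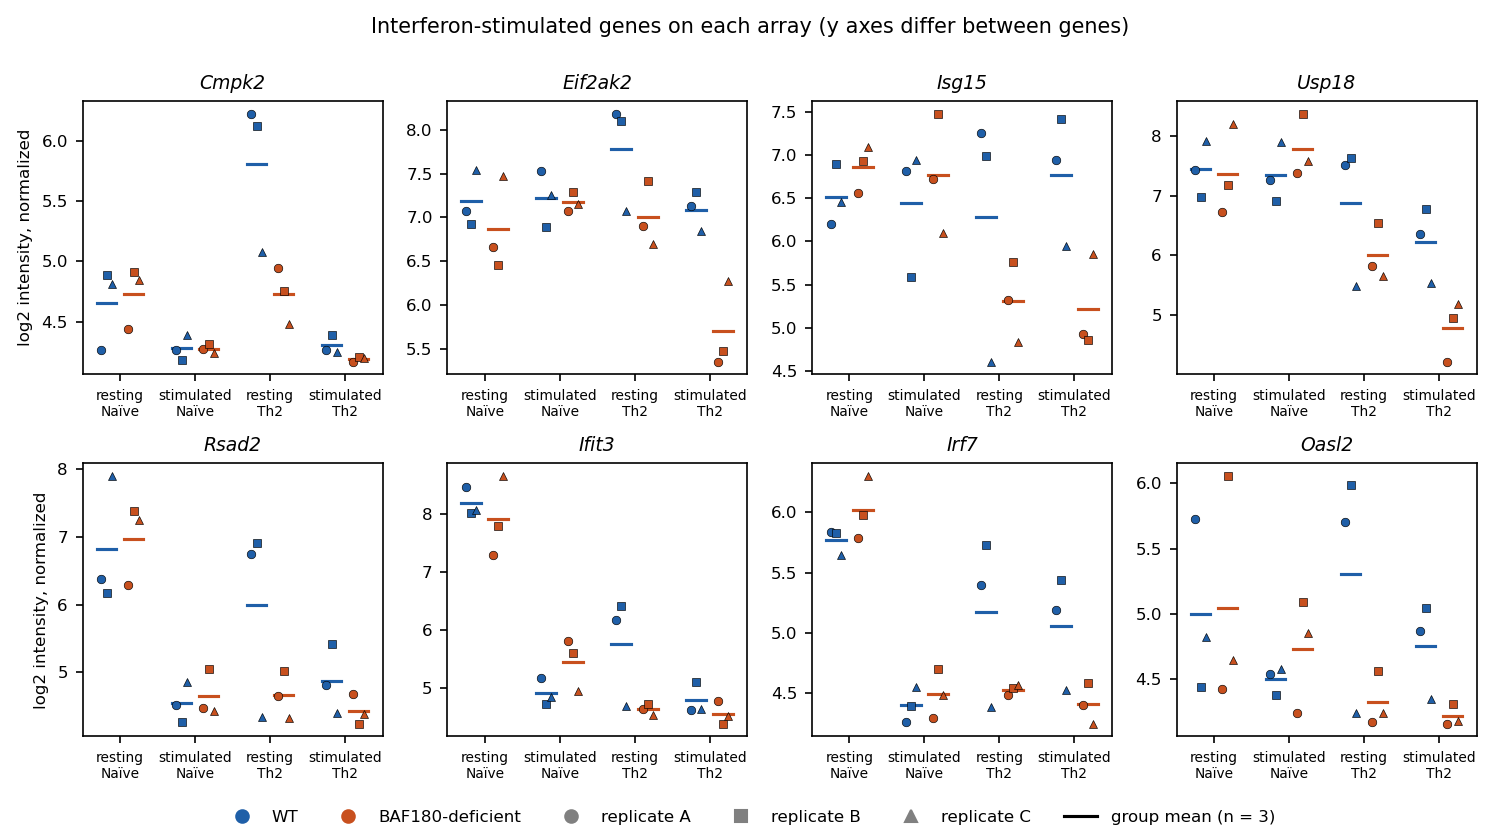
Log2 intensity of 8 interferon-stimulated genes on all 24 arrays by cell state (x axis) and genotype, with replicate letters as marker shapes and a line at each group mean (n = 3). The y axes differ between genes. For Rsad2 and Ifit3 in resting Th2 cells WT arrays A and B stand above WT C, which is level with the BAF180-deficient arrays. For Eif2ak2 in stimulated Th2 cells all WT arrays stand above all BAF180-deficient arrays.

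In stimulated Th2 cells, 34 of the 37 genes were lower in BAF180-deficient cells, with a median difference of -0.28, against 49.2% of all genes and a median of 0.0023. Only Eif2ak2 met the criteria of the methods, which 0.096% of all genes met. Without the FDR criterion 6 genes passed, all lower (Eif2ak2, Irf7, Isg15, Usp18, Gbp2 and Irgm1), against 2.74% of all genes. BAF180-deficient arrays lay below all WT arrays for 10 genes (Oasl2, Eif2ak2, Cmpk2, Zbp1, Irf9, Sp100, Isg15, Usp18, Mx1 and Ifi47), against 3.62% of all genes, and above them for 0, against 3.85%. Of the 10, Cmpk2, Sp100 and Mx1 were not detected on any stimulated Th2 array of either genotype, so their order is one of background values. Here 11 of 13 nucleic acid effectors, all 5 sensors, all 3 transcription factors and all 7 GTPases were lower, with medians of -0.25, -0.09, -0.51 and -0.26. Of the naïve T cell markers 6 of 8 were lower here (median -0.13), of the NK and CD8 markers 4 of 4 (median -0.05) and of the Th2 markers 4 of 8.

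Eif2ak2 encodes PKR, the kinase that stops translation when it binds double-stranded RNA. It gave 7.13, 7.29 and 6.84 on WT arrays A, B and C and 5.35, 5.47 and 6.28 on BAF180-deficient arrays. The groups did not overlap, and BAF180-deficient array C was the nearest to WT. The difference was -1.39 ± 0.31, or 2.62-fold, with an adjusted p of 0.229. Isg15 gave 6.95, 7.41 and 5.94 in WT and 4.92, 4.86 and 5.85 in BAF180-deficient cells, a difference of -1.56 ± 0.55. Usp18 gave 6.36, 6.78 and 5.54 in WT and 4.21, 4.95 and 5.18 in BAF180-deficient cells, a difference of -1.44 ± 0.50. In both the C arrays of the genotypes lay close together, and A and B far apart. Neither passed after adjustment, with unadjusted limma p values of 0.00992 for Isg15 and 0.00864 for Usp18.

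Gbp2, a guanylate-binding protein that acts on pathogen-containing vacuoles, gave 9.69, 9.50 and 10.09 in WT and 8.72, 8.49 and 9.75 in BAF180-deficient stimulated Th2 cells. Each BAF180-deficient array was below the WT array of its letter, while BAF180-deficient C exceeded WT A and B, and the difference was -0.77 ± 0.24. Ifi47, an immunity-related GTPase, gave 8.88, 8.76 and 9.06 in WT and 8.45, 8.28 and 8.40 in BAF180-deficient cells. Irf9, a DNA-binding factor of the type I interferon response, gave 8.25, 8.29 and 7.71 in WT and 7.49, 7.65 and 7.58 in BAF180-deficient cells. Neither group pair overlapped, and neither gene met the criteria. With the replicate block within the state, Eif2ak2 (adjusted p = 0.0975) and Gbp2 (0.0984) met the criteria, against 0.374% of all genes.

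Without WT array C, Eif2ak2 and Isg20 met the criteria, against 0.269% of all genes. Without BAF180-deficient array C, Eif2ak2 and Gbp2 did, against 0.125% of all genes. Isg20 gave 6.55, 6.32 and 4.83 in WT and 5.18, 5.64 and 4.73 in BAF180-deficient stimulated Th2 cells. Leaving out WT A, WT B, BAF180-deficient A or BAF180-deficient B gave 0 genes.

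In resting Naïve cells, 18 of the 37 genes were lower and the median difference was 0.02, against 49.4% of all genes and a median of 0.0029. Of the 37, 0 genes met the criteria, against 0.758% of all genes. Without the FDR criterion Ddx58 alone passed, against 5.99% of all genes. It gave 6.42, 5.68 and 6.05 in WT and 5.56, 5.39 and 5.76 in BAF180-deficient cells, overlapping groups, with a difference of -0.48 ± 0.23 and an adjusted p of 0.727. With the replicate block within the state it met the criteria (adjusted p = 0.269), as did 4.42% of all genes. Groups did not overlap for 0 genes below WT (3.6% of all genes) and 0 above (4.39%). Adar, the enzyme that edits double-stranded RNA, met the criteria on 1 of its 3 kept probes, at -0.82 with an adjusted p of 0.135, while the others differed by 0.14 and 0.23. Markers of cell types moved here too. All 9 kept memory and effector T cell markers were higher in BAF180-deficient cells (median 0.38). Their mean was 7.10 to 7.35, against 6.69 to 6.90 in WT. Of the naïve T cell markers 6 of 8 were lower (median -0.12). S100a6, a memory marker, met the criteria upward and Dapl1, a naïve marker, downward. The part of these markers in the values of the 37 genes was not tested.

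In stimulated Naïve cells, 15 of the 37 genes were lower, with a median of 0.07, against 48.5% of all genes. 0 genes met the criteria (0.115% of all genes), 0 met them without the FDR criterion (2.19%), and 0 with the replicate block within the state (0.259%). Gbp2 and Gbp3 lay below WT with no overlap, against 3.18% of all genes, and Ifi44 and Lgals3bp above, against 3.42%, but Ifi44 was not detected on any of these 6 arrays. Gbp2 gave 12.69, 12.65 and 12.62 in WT and 12.28, 12.09 and 12.47 in BAF180-deficient cells. Isg15 and Usp18, lower in both Th2 states, differed by 0.32 ± 0.55 and 0.43 ± 0.50 here.

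The mean of the 4 states, taken per letter and genotype, gave 0 of the 37 genes at an adjusted p below 0.05, against 0.0096% of all genes, and 7 at an unadjusted p below 0.05 in limma. Eif2ak2 was lower in 4 of 4 states, by -0.63 ± 0.12, with an adjusted p of 0.444. Bst2 was higher in 4 of 4 states, by 0.47 ± 0.12, with an adjusted p of 0.570. Whether the genotype difference itself varied between states was tested as an interaction. For stimulation of Naïve cells 0 genes passed at an adjusted p below 0.05 (0.0096% of all genes) and 0 at an unadjusted p below 0.05. For resting Th2 against resting Naïve cells 0 passed (0.0096%), with 2 unadjusted, and 29 of the 37 had a lower genotype difference in Th2 cells (median -0.25, against 0.0012 over all genes). For stimulated Th2 against stimulated Naïve cells 0 passed (0%), with 3 unadjusted, and 33 of the 37 were lower (median -0.32, against -0.00047). For stimulation of Th2 cells 0 passed (0%), with 1 unadjusted. No single gene is thus shown to differ between genotypes by another amount in Th2 than in Naïve cells. For the mean of the 4 states and the interactions, the share of all genes at an unadjusted p below 0.05 was not counted. The unadjusted counts above therefore have no background to be read against.

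With stimulation of Naïve WT cells, 4 of the 37 genes (10.8%) rose at an adjusted p below 0.05, against 23.3% of all genes. A further 9 (24.3%) fell, near the 21.9% of all genes that fell. The 4 were the GTPases Gbp2, Irgm1, Igtp and Ifi47, and the 9 had other roles. The other 3 GTPases of the list (Gbp3, Mx1 and Mx2) did not pass. In BAF180-deficient cells 5 (13.5%) rose, against 22.1% of all genes, those 4 GTPases and Bst2. Another 11 (29.7%) fell, against 21.3% of all genes, those 9 with Adar and Irf9. Interferon-gamma RNA (Ifng) rose in the same comparison by 2.34 in WT and 3.34 in BAF180-deficient cells.

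Gbp2 gave 9.76, 9.75 and 9.87 in WT resting Naïve cells and 12.69, 12.65 and 12.62 after stimulation, with no overlap. It rose by 2.86 ± 0.24, or 7.26-fold, with an adjusted p of 7.88e-09 in limma, and by 2.50 in BAF180-deficient cells. Irgm1, an immunity-related GTPase of autophagy and pathogen defence, gave 9.31, 9.30 and 9.36 at rest and 10.76, 11.37 and 11.14 after stimulation in WT. It rose by 1.77 ± 0.19 in WT and 1.52 in BAF180-deficient cells. Igtp (Irgm3), a GTPase related to it, gave 9.10, 9.31 and 8.91 at rest and 11.04, 10.95 and 10.37 after stimulation in WT, and rose by 1.68 ± 0.26 in WT and 1.30 in BAF180-deficient cells. Ifi47 gave 7.47, 7.40 and 7.53 at rest and 8.20, 9.55 and 8.82 after stimulation in WT, and rose by 1.39 ± 0.35 and 1.39. All 4 were above their resting arrays on every stimulated array in WT, whereas BAF180-deficient Ifi47 overlapped, with 7.47 on stimulated array A and 7.87 on resting array C.

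The genes that fell included several best known for induction by type I interferon. Ifit3 gave 8.46, 8.01 and 8.07 in WT resting Naïve cells and 5.18, 4.74 and 4.85 after stimulation. It fell by 3.26 ± 0.35 on the log2 scale, or 9.56-fold, with an adjusted p of 2.51e-07, and by 2.46 in BAF180-deficient cells. Rsad2 gave 6.38, 6.17 and 7.90 at rest and 4.52, 4.26 and 4.86 after stimulation, and fell by 2.27 ± 0.51 in WT and 2.32 in BAF180-deficient cells, with 1 of 3 stimulated arrays of each genotype above background. For both, every stimulated array lay below every resting array. Dhx58 (LGP2, a regulator of RIG-I and MDA5) gave 6.72, 6.87 and 7.04 at rest and 5.69, 4.69 and 5.30 after stimulation in WT, and fell by 1.65 ± 0.37 in WT and 1.20 in BAF180-deficient cells. Oas2 gave 5.96, 5.71 and 6.26 at rest and 4.36, 4.24 and 4.26 after stimulation in WT, and Irf7 gave 5.84, 5.83 and 5.65 and then 4.26, 4.39 and 4.55. None of these groups overlapped. Ddx58 fell by 1.21 ± 0.23 in WT and 0.81 in BAF180-deficient cells, with 2 of 3 stimulated arrays of each genotype above background. Oas2, Irf7, Sp100 (a nuclear body protein) and Parp9 were not detected on any stimulated WT array and were higher at rest by at least 2.51-fold, 2.18-fold, 2.11-fold and 1.71-fold. Isg15 and Usp18 did not pass in either genotype. Usp18 gave 7.44, 6.97 and 7.91 in resting and 7.26, 6.90 and 7.90 in stimulated WT Naïve cells, so this feedback protease overlapped where Ifit3 did not.

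Markers of other cells moved with this comparison. The mean of 8 myeloid markers was 7.94 to 8.76 on resting WT and 7.98 to 8.42 on resting BAF180-deficient arrays, with all 8 detected, and 4.44 to 4.64 on stimulated Naïve arrays, where Cd14, Fcgr3, Lyz2 and Tyrobp were not detected. On Th2 arrays it was 4.34 to 4.69. Markers of plasmacytoid dendritic cells, the main makers of interferon-alpha, gave a mean over 5 genes of 6.82 to 7.47 on resting Naïve arrays and at most 5.62 on all others. B cell markers gave 5.93 to 6.96 on resting Naïve arrays and 4.89 to 5.48 on stimulated Naïve arrays. Their part in the higher values of resting Naïve cells was not tested.

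**Figure D4:**
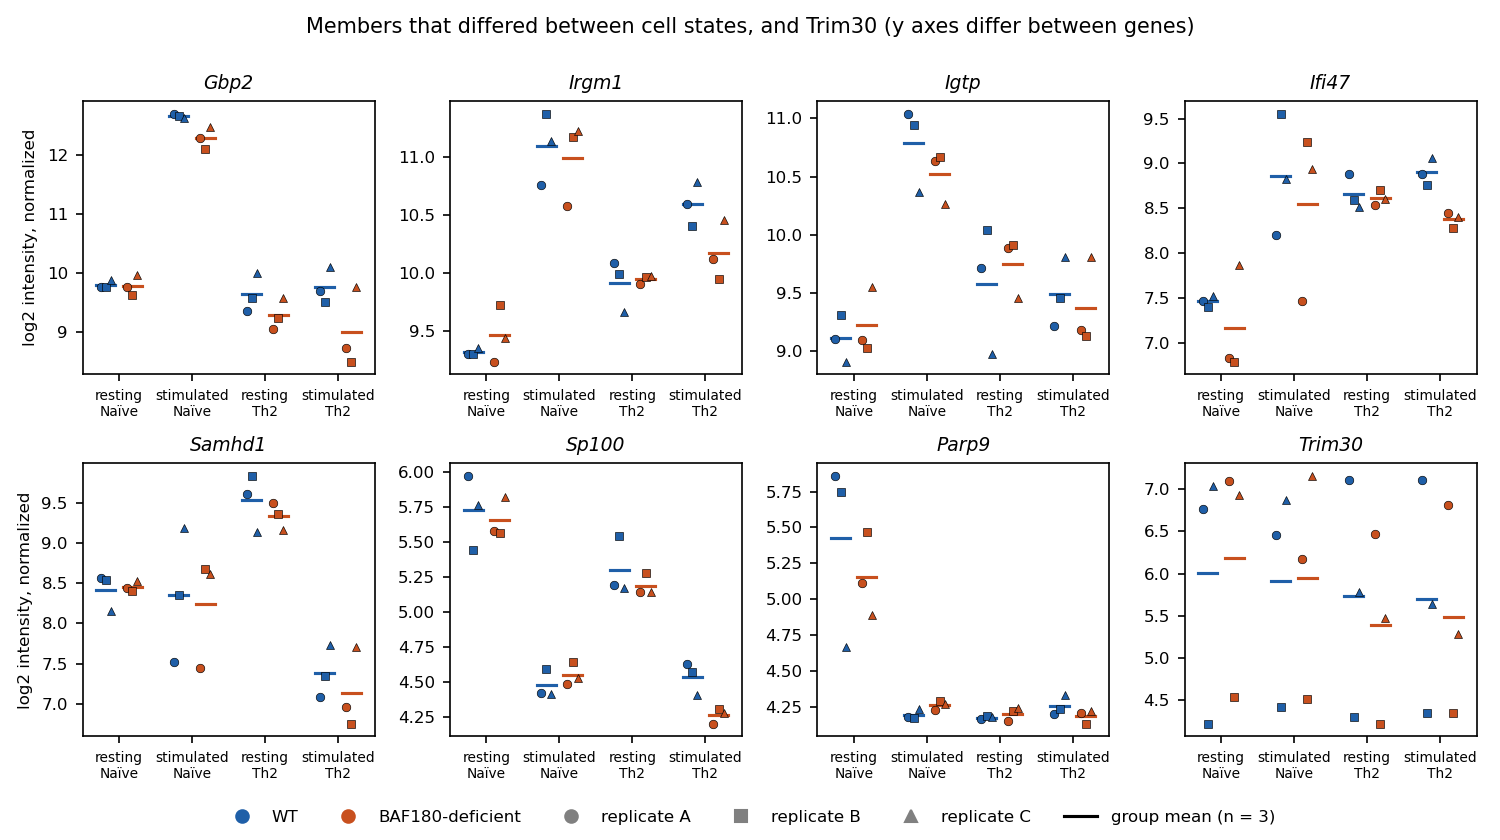
Log2 intensity of 7 members that differed between cell states, and of Trim30, on all 24 arrays by cell state (x axis) and genotype, with replicate letters as marker shapes and a line at each group mean (n = 3). The y axes differ between genes. The group means of Gbp2, Irgm1 and Igtp are highest in stimulated Naïve cells and those of Samhd1 lowest in stimulated Th2 cells, and Trim30 is at 4.54 or below on all arrays of letter B.

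Resting Th2 cells were compared with the same resting Naïve arrays, which the 2 comparisons therefore share. In WT cells 7 genes (18.9%) were higher in Th2, against 17.9% of all genes, and 5 (13.5%) lower, against 17.6%. Both lie near the shares of all genes. In BAF180-deficient cells 1 (2.7%) was higher, against 18.2% of all genes, and 11 (29.7%) lower, against 17.5%. Ifi47 was higher in both genotypes, by 1.20 ± 0.35 and 1.45 ± 0.35. In WT alone Cmpk2 (1.16 ± 0.22), Samhd1 (1.11 ± 0.35), Lgals3bp (0.97 ± 0.37), Isg20, Oas3 and Irgm1 (0.60 ± 0.19) passed, and the interaction given above passed for 0 of the 37 genes. Samhd1, which hydrolyses the nucleotides that reverse transcription needs, gave 8.57, 8.55 and 8.15 in WT resting Naïve and 9.62, 9.84 and 9.14 in WT resting Th2 cells. Cmpk2 gave 4.26, 4.88 and 4.81 in WT resting Naïve cells, below its 3 WT resting Th2 values given above, and Ifi47 gave 8.88, 8.59 and 8.51 in WT resting Th2 cells, above its Naïve values. Lgals3bp, a secreted glycoprotein, gave 8.05, 7.93 and 7.59 in Naïve and 9.31, 9.48 and 7.69 in Th2 cells of WT, where array C overlapped with the Naïve arrays. Without the resting Th2 WT array A, 5 genes passed in place of 12. Isg20 (4.20, 4.15 and 4.31 on the WT resting Naïve arrays) and Oas3, not detected on any WT resting Naïve array, were higher in WT Th2 cells by at least 1.26-fold and 1.22-fold.

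Ifit3 was lower in resting Th2 than in resting Naïve cells by -2.41 ± 0.35 in WT and by -3.28 ± 0.35 in BAF180-deficient cells. In WT cells Ifit2, a relative of Ifit3, gave 6.48, 6.36 and 6.58 in resting Naïve and 6.17, 5.87 and 5.37 in resting Th2 cells, and Adar gave 7.67, 6.57 and 6.70 and then 6.46, 6.34 and 5.75. Neither overlapped. Ifit2 was lower in Th2 cells by -0.68 in WT and -1.15 in BAF180-deficient cells, and Adar by -0.80 and -1.14. Sp100 gave 5.97, 5.44 and 5.77 in resting Naïve and 5.19, 5.54 and 5.17 in resting Th2 cells of WT, which overlapped, and was lower by -0.43 and -0.47. Parp9, at 5.86, 5.75 and 4.67 in WT resting Naïve cells and not detected in resting Th2 cells, was higher in resting Naïve cells by at least 1.77-fold in WT and 1.50-fold in BAF180-deficient cells. Rsad2 (-2.31 ± 0.51), Oas2, Irf7 (-1.50 ± 0.25), Dhx58 (-1.08 ± 0.37), Isg15 (-1.55 ± 0.55) and Usp18 (-1.36 ± 0.50) passed in BAF180-deficient cells only. Irf7 was detected on 1 and Rsad2 on 2 of the 3 BAF180-deficient resting Th2 arrays. Their WT arrays A and B in resting Th2 cells were the highest of the 6 for each of these genes. The myeloid and dendritic cell markers above differ between the same groups of arrays.

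Stimulation of Th2 cells for 1.5 h lowered more of the genes than it raised. In WT cells Irgm1 alone (2.7%) rose, against 12.5% of all genes, and 9 (24.3%) fell, against 15.9%. Without the resting WT array B 6 passed in place of 10. In BAF180-deficient cells 0 rose (11.7% of all genes), with Ifih1 alone, at 0.28, at an unadjusted p below 0.05 in limma. There 7 (18.9%) fell, near the 15.4% of all genes that fell. Irgm1 gave 10.09, 9.99 and 9.67 at rest and 10.59, 10.41 and 10.79 after stimulation in WT, with no overlap, and rose by 0.68 ± 0.19. Samhd1 had the largest fall in both genotypes, from 9.62, 9.84 and 9.14 to 7.08, 7.35 and 7.73 in WT. The difference was -2.15 ± 0.35, or 4.43-fold, with an adjusted p of 7.42e-05 in limma, and -2.20 ± 0.35 in BAF180-deficient cells. Ifit2 gave 4.81, 4.39 and 4.56 after stimulation in WT, below its resting values given above and detected on 1 of 3 arrays, and Dhx58 went from 6.45, 7.22 and 5.63 to 5.64, 5.66 and 4.47, which overlapped. Ifit2 (-1.22 and -0.82), Dhx58 (-1.18 and -1.04), Parp14 (-0.84 and -1.13), Sp100 and Gbp3 (-0.54 and -0.89) fell in both genotypes. Sp100 was not detected after stimulation and was higher at rest by at least 1.56-fold in WT and 1.44-fold in BAF180-deficient cells.

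Cmpk2 gave 4.27, 4.39 and 4.25 on the stimulated Th2 arrays of WT cells, was not detected on any of them, and was higher at rest by at least 2.21-fold. Ddx58 gave 4.94, 5.06 and 4.60 after stimulation in WT, all below its resting values, and fell by 1.20 ± 0.23, and Ifit3 fell by 0.97 ± 0.35, with overlapping groups. Eif2ak2 fell in BAF180-deficient cells, from 6.91, 7.42 and 6.69 to 5.35, 5.47 and 6.28, by 1.30 ± 0.31 on the log2 scale. In WT cells it went from 8.18, 8.10 and 7.08 to 7.13, 7.29 and 6.84 and did not pass. Ifng rose here by 6.05 in WT cells, where 1 of 3 resting arrays detected it, and was at least 73.7-fold higher after stimulation in BAF180-deficient cells, where no resting array did. Gbp2, Igtp and Ifi47, which had risen with 24 h of stimulation in Naïve cells, did not pass in Th2 cells.

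**Figure D5:**
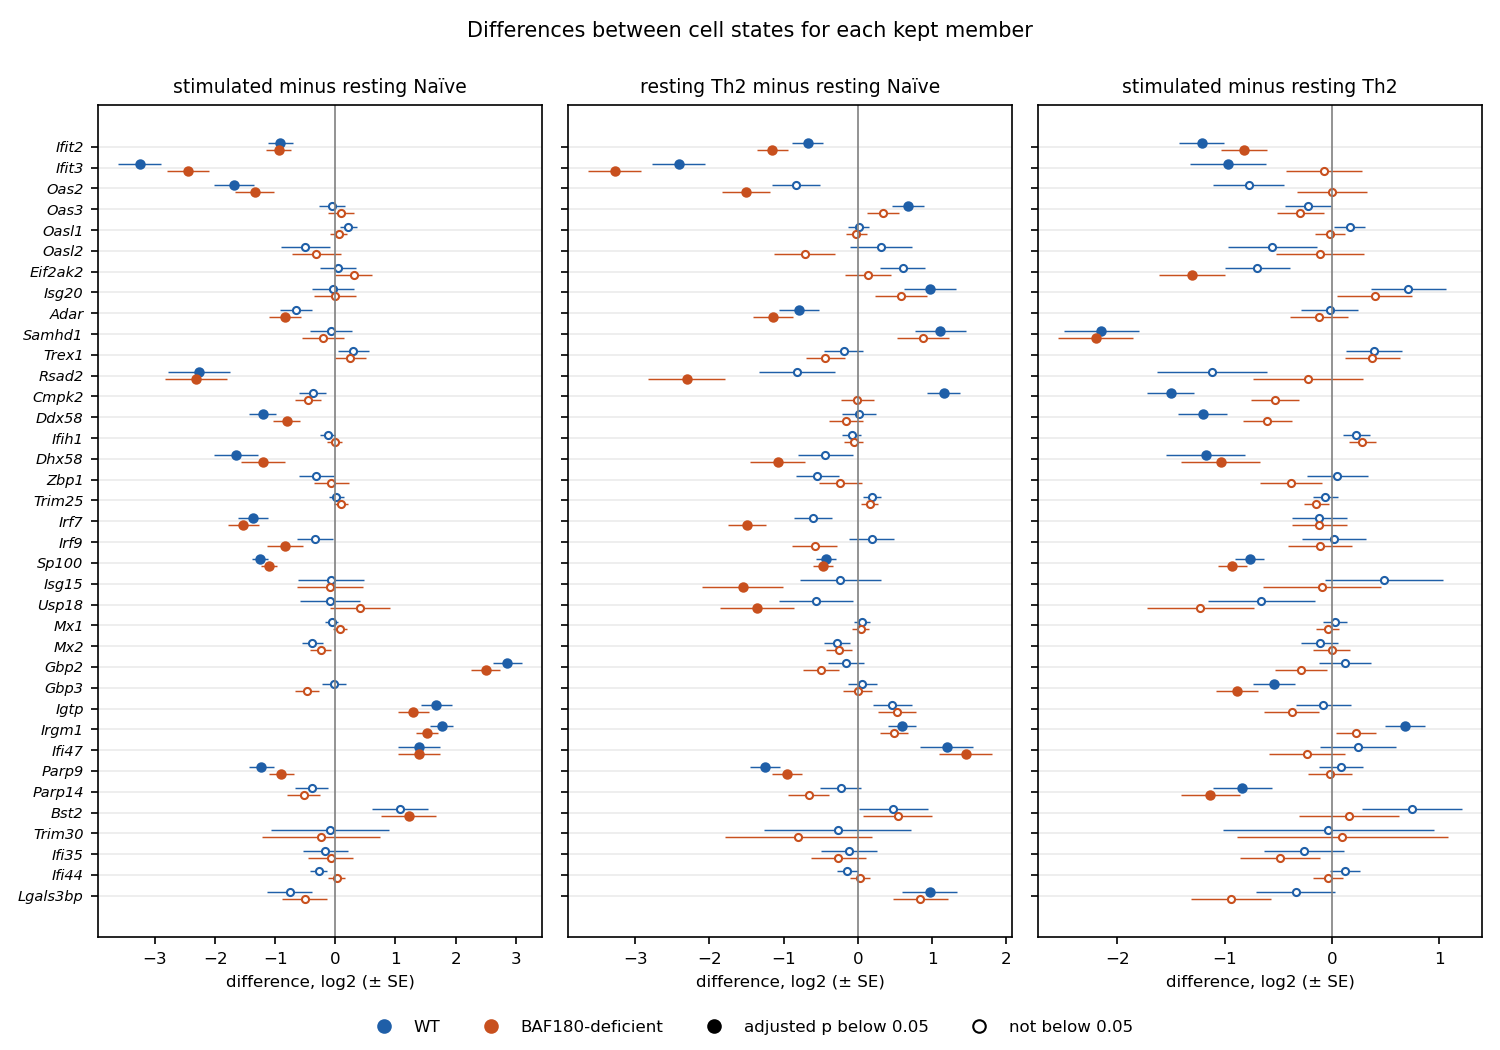
Log2 difference of each of the 37 genes in the 3 comparisons of cell states (panels), in WT and BAF180-deficient cells, with bars of 1 SE. Filled points passed an adjusted p below 0.05. Gbp2, Irgm1, Igtp and Ifi47 are to the right of 0 with stimulation of Naïve cells, where Ifit3 is furthest to the left, and Samhd1 is furthest to the left with stimulation of Th2 cells.

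Of a list of 32 genes for interferons, their receptors and signalling, 26 were kept and 0 met the criteria between genotypes in any of the 4 states, with 0 to 3 per state at an unadjusted p below 0.05 in limma. Ifna1 and Ifna2 were not detected in any Th2 group. Among Naïve arrays Ifna1 was detected on 0 resting arrays and on 2 WT and 1 BAF180-deficient stimulated arrays. Ifna2 was detected on 1 WT resting Naïve array only. Ifng was not detected in BAF180-deficient resting Th2 cells. In WT cells 9 fell (21.9% of all genes) and 1 (Ifng) rose (23.3%) with stimulation of Naïve cells. Among the 9 were Ifngr1, the ligand-binding chain of the interferon-gamma receptor, at -3.14, and Tlr7, the endosomal sensor of single-stranded RNA, at -1.88. 10 were lower (17.6% of all genes) and 1 (Stat2) higher (17.9%) in resting Th2 than in resting Naïve cells. With stimulation of Th2 cells 6 fell (15.9% of all genes) and 4 rose (12.5%). The 4 were Ifng, Irf8 (2.86), Jak2 (2.60) and Irf1 (0.61). Of 44 further interferon-induced genes, 31 were kept and 0 met the criteria between genotypes. At an unadjusted p below 0.05 in limma were 5 (resting) and 7 (stimulated) of them in Th2 cells and 2 and 3 in Naïve cells. The share of all genes at that unadjusted p was not counted for either list. In BAF180-deficient cells 24 of the 31 were lower in resting Th2 and 27 in stimulated Th2 cells (medians -0.23 and -0.25), against 12 and 14 in resting and stimulated Naïve cells. Of all genes 49.4% and 49.2% were lower in resting and stimulated Th2 cells, and 49.4% and 48.5% in resting and stimulated Naïve cells. The lists overlap, and Stat2, for one, is in both. In WT cells 7 of these 31 rose (23.3% of all genes) and 7 fell (21.9%) with stimulation of Naïve cells, near the shares of all genes. Among them were Gbp5 (2.08) and Ly6a (2.38) upward and Epsti1 (-2.87) and Ifitm3 (-2.02) downward.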

How the data were processed

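Total RNA of 24 samples was labelled as cRNA and hybridized to Illumina MouseRef-8 v2 BeadChips. The authors deposited, for each of 25697 probes and each array, the average bead intensity without normalization and a detection p-value. The submitters' processing notes name GenomeStudio 1.6.0. The lowest intensity was 25.8 to 30.3 on every array, so background had not been subtracted. The Z-score normalized values of the study's methods were not used here.

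A probe was kept where its detection p was 0.02 or less on any array (14246 probes, 10418 genes). Intensities were background-corrected (offset 16), put on the log2 scale and then quantile normalized (neqc, limma 3.58.1 in R 4.3.3). The kept probe with the highest mean stood for a gene, and in the 11 members with several kept probes the genotype differences had opposite signs in 2 to 6 of them per state. Precision is limited by having 3 arrays per group (median SE of a genotype difference 0.19). Genotypes and states were compared in 1 linear model with 8 group means and moderated variances (16 residual degrees of freedom). P-values were adjusted by Benjamini-Hochberg over all 14246 kept probes. The study's methods take their FDR and P from other procedures than limma, which was used for both here. State comparisons and interactions were called at an adjusted p below 0.05. An exact permutation test of 3 against 3 arrays cannot go below 0.1 and was not used. For the mean over the 4 states, values were averaged per genotype and letter before the fit.

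The members and all gene lists were chosen with earlier results of these data known. Named with values per array were members that met the criteria between genotypes, also with the replicate block, and the 5 largest rises and falls per state comparison in WT. Members named for other reasons were chosen after their values were seen. Replicate letters were checked as pairs. The correlation of deviations from the group means between same-lettered arrays of the genotypes, pooled over states, was 0.30 (A), 0.14 (B) and 0.52 (C), and in 2 of 12 single values it was below 0.1. Genes were matched by current symbol through Entrez ID. The scripts were tested on simulated data. Promoter windows are from RefSeq, GRCm38.p6.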

Additional observations from a re-analysis of the deposited data

How the results depend on the processing

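The alternatives changed normalization, background correction, offset, detection filter, probe choice, arrays in the fit, block and call rule, and left out each array in turn. None of the 430 values of the genes named by the rule changed direction, and 370 of them kept their side of the threshold. That rule picked genes for a call or a large change in these same data. A kept direction was therefore likely from the start and is no independent support. Of the other genes, none of which met the criteria, 4 in resting and 5 in stimulated Th2 cells had another sign without WT array C, among them Igtp (0.17 to -0.13) and Lgals3bp (0.27 to -0.30) at rest, and the resting Naïve median was below 0 under 4 alternatives. In resting Th2 cells 1 gene met the criteria between genotypes. The count was 0 with no detection filter, with only the arrays of the comparison and at an adjusted p below 0.05, 9 without the FDR criterion, 2 with the replicate block within the state, and 0 to 6 with 1 array left out. In stimulated Th2 cells it was 1, and 0 under Z-score normalization, no background correction, an offset of 50, no detection filter, only the arrays of the comparison and an adjusted p below 0.05. It was 6 without the FDR criterion, 2 with the replicate block within the state and 0 to 2 with 1 array left out. In resting Naïve cells it was 0, but 1 when any probe of a gene could count, with the replicate block within the state and without the FDR criterion, and 0 to 1 with 1 array left out (Mx2 without WT array B, Parp9 without WT array C). In stimulated Naïve cells it was 0 under all of them. The median difference of the 37 genes ranged from -0.39 to -0.08 in resting Th2, from -0.34 to -0.19 in stimulated Th2, from -0.03 to 0.06 in resting Naïve and from 0.02 to 0.09 in stimulated Naïve cells. With the letter as a replicate block over all 24 arrays the counts between genotypes stayed at 1, 1, 0 and 0. The block within the state was chosen after seeing the data. Between states, the criteria of the methods in place of an adjusted p below 0.05 gave 7 (WT) and 6 (BAF180-deficient) genes for stimulation of Naïve cells, in place of 13 and 16. They gave 2 and 7 for resting Th2 against resting Naïve cells, in place of 12 and 12, and 6 in place of 10 for stimulation of WT Th2 cells. Z-score normalization gave 7 and only the arrays of the comparison 6 for WT resting Th2 against resting Naïve cells, and no detection filter gave 6 for stimulation of WT Th2 cells. With 1 array left out these counts ranged from 5 to 11 and from 6 to 14. The replicate block moved no count between states by more than 1.5 times, with 15 and 16 genes for stimulation of Naïve cells. The cause of these changes was not tested. Low intensity limits the genes near background, of which 6 were detected on at most 3 arrays.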

Other observations

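Trim30, an interferon-induced regulator of Toll-like receptor signalling, followed the replicate letter in both genotypes and every cell state. Within letter C it also differed by cell type, with at least 6.87 on Naïve and at most 5.79 on Th2 arrays. It was chosen for this after its values were seen. On the 8 arrays of letter B it was not detected and gave at most 4.54, and on the 16 arrays of letters A and C it was detected throughout and gave at least 5.28. In WT resting Naïve cells, for example, arrays A, B and C gave 6.76, 4.22 and 7.04, and in BAF180-deficient cells 7.09, 4.54 and 6.94. Letters A and C were at least 3.52-fold higher than letter B, where the probe lay at background (adjusted p of the letter in limma = 1.24e-05). Of the 10418 genes, Trim30 was the only gene with all 8 B arrays below the other 16, and 0 genes had all 8 above. In the same test 353 genes differed between letters at an adjusted p below 0.05. Among the 37 interferon-stimulated genes the other one was Ifi35, with means of 7.33, 7.31 and 6.58 for A, B and C (adjusted p = 0.0031).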
